A study of Mus musculus with 2 samples.

Results

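Interferon-stimulated genes (ISGs) are the genes that cells switch on when they detect interferons, and their products block the replication of viruses. The RNA of 44 ISGs was followed in hematopoietic stem cells (HSCs), the self-renewing source of all blood cells in the marrow. The 44 were taken by gene symbol from a hand-written list of classical ISGs, and all 44 were found among the 24421 gene symbols counted. They were placed in 7 roles, which order the account below: sensors of foreign RNA and DNA, transcription factors, RNA-binding and RNA-degrading effectors, membrane and virus-restriction effectors, genes of ubiquitin, ISG15 and ADP-ribosylation, GTPases with immunoproteasome subunits, and other induced genes.

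Interferons act on nearby cells and on the cell that secretes them. Type I interferons (interferon-α and interferon-β) bind the receptor of *Ifnar1* and *Ifnar2*, which activates the kinases *Jak1* and *Tyk2* and leads to a complex with STAT2 and IRF9 that binds the interferon-stimulated response element (ISRE) in the promoters of ISGs. Interferon-γ binds *Ifngr1* and *Ifngr2* and acts on the gamma-activated site (GAS). In HSCs interferons are known to end quiescence when they act briefly, and some ISGs are known to be expressed in stem cells without infection, where they are thought to protect them.

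There were 2 libraries, 1 per group, both from C57BL/6 mice with the Cre-ERT transgene (genotype CreERT+/-), a recombinase that works only in the presence of tamoxifen. CD45.2 marrow of either genotype was engrafted in lethally irradiated CD45.1 mice, tamoxifen was given as 100 µl of a 10 mg/ml solution on each of 5 days, and HSCs were sorted 1 month after it by the surface phenotype CD150+CD48-CD34-Flt3- within lineage-negative Sca-1+c-kit+ (LSK) marrow. The WT library was Ezh2 +/+ and the other was Ezh2 Δ/Δ, that is, floxed *Ezh2* after recombination. *Ezh2* encodes the histone methyltransferase of Polycomb repressive complex 2. The promoter that drives Cre, the age of the mice, and the number of donors or recipients behind each library are not given in the sources used here, and the sort phenotype in the labels names no CD45 allele that would set donor cells apart from those of the host.

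Counts of *Ezh2* itself did not separate the libraries. Raw counts were 166 (WT) and 129, or 142.5 and 150.3 after scaling, a log2 ratio of 0.08 (95% interval -0.27 to 0.42). A count over the whole gene does not show whether a floxed exon was lost, so the second library is called the library labelled Ezh2 KO throughout. The libraries also differed in sex-linked RNA, with 801 and 4 counts of *Xist*, while the Y-linked *Ddx3y*, *Eif2s3y*, *Kdm5d* and *Uty* were at 0 in WT and between 106 and 275 counts in the other library. Sex, genotype and library preparation thus cannot be told apart in any ratio given here.

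Depth was 5763118 gene counts for WT and 4157280 for the library labelled Ezh2 KO, and 3 counts, taken as the floor, equalled 0.521 and 0.722 CPM, the count scaled to a common library total. Values below are normalised counts, meaning raw counts divided by a size factor for each library, with WT first, and every log2 ratio is the library labelled Ezh2 KO over WT after 1 was added to both normalised counts. Brackets after a ratio hold its exact 95% (Clopper-Pearson) interval, taken from the raw counts without the added 1. With 1 library per group no difference has a replicate check, and the intervals cover counting error only. The reads carry no molecular identifiers and amplified copies are not independent, so the intervals may be too narrow even for counting error. An exact two-sided binomial test of the 2 counts, with Benjamini-Hochberg adjustment over 12588 genes, compares these libraries and not the conditions, and a gene was called at an adjusted p below 0.01 together with at least a 2-fold difference. In bulk RNA, fewer cells that express a gene and less RNA per cell cannot be told apart.

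Promoters of the ISGs are shown first because the factors that respond to interferon bind there. RefSeq windows from 250 bases before to 50 bases after the start of transcription (build GRCm38.p6) were matched by symbol for 35 of the 44 members. *Mx1*, *Mx2*, *Usp18*, *Parp9*, *Parp14*, *Dhx58*, *Oas2*, *Zbp1* and *Rtp4* had no entry. Members and genes tested were counted by gene, with a match in any of their windows. An ISRE-like motif, GAAANNGAAA on either strand, was found in 19 of the 35 (54.3%), whereas it was in 3.44% of all 32851 windows and in 3.88% of the 9623 genes tested that had a window. A GAS-like motif, TTCNNNGAA, which reads the same on both strands, was in 12 of the 35 (34.3%), in 8.30% of all windows and in 8.36% of the genes tested that had a window. In 5 members both were present and in 9 neither was, and in *Bst2* and *Ifitm3* a match of each kind shared bases.

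Windows of 30 bases are printed with every full ISRE-like match in capitals, 5′ to 3′ on the strand of the gene and wholly before the start site. The first set is the 7 members with the highest level per exon length among those whose match lies before the start and outside the annotated gene.
Ifitm2 (chr7:140955988-140956017, - strand): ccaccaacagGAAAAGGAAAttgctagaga
Bst2 (chr8:71537583-71537612, - strand): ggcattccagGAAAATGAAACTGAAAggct
Igtp (chr11:58199512-58199541, + strand): tctaggaactGAAACTGAAAgctgttcggg
Gbp3 (chr3:142559989-142560018, + strand): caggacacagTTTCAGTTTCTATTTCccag
Trim30a (chr7:104465210-104465239, - strand): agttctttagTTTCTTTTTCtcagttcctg
Ifit1 (chr19:34640775-34640804, + strand): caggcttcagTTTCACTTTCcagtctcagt
Isg15 (chr4:156200877-156200906, - strand): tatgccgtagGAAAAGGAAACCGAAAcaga
In these promoters the match began between 34 and 130 bases before the start of transcription. *Bst2*, *Gbp3* and *Isg15* held 2 or more overlapping or adjoining copies, so that the repeat of GAAA, or of TTTC where the match is on the opposite strand, runs on through the window.

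The second set is the members with such a match whose RNA differed most, at least 1.5-fold, apart from *Ifit1* above.
Stat2 (chr10:128270266-128270295, + strand): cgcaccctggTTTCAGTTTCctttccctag
Ifit3 (chr19:34583363-34583392, + strand): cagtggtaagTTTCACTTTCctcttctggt
Cxcl10 (chr5:92349083-92349112, - strand): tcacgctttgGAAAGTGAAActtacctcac
Here the match lay further away in *Stat2* and *Cxcl10*, 222 and 213 bases before the start, and 156 bases before it in *Ifit3*.

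**Figure D1:**
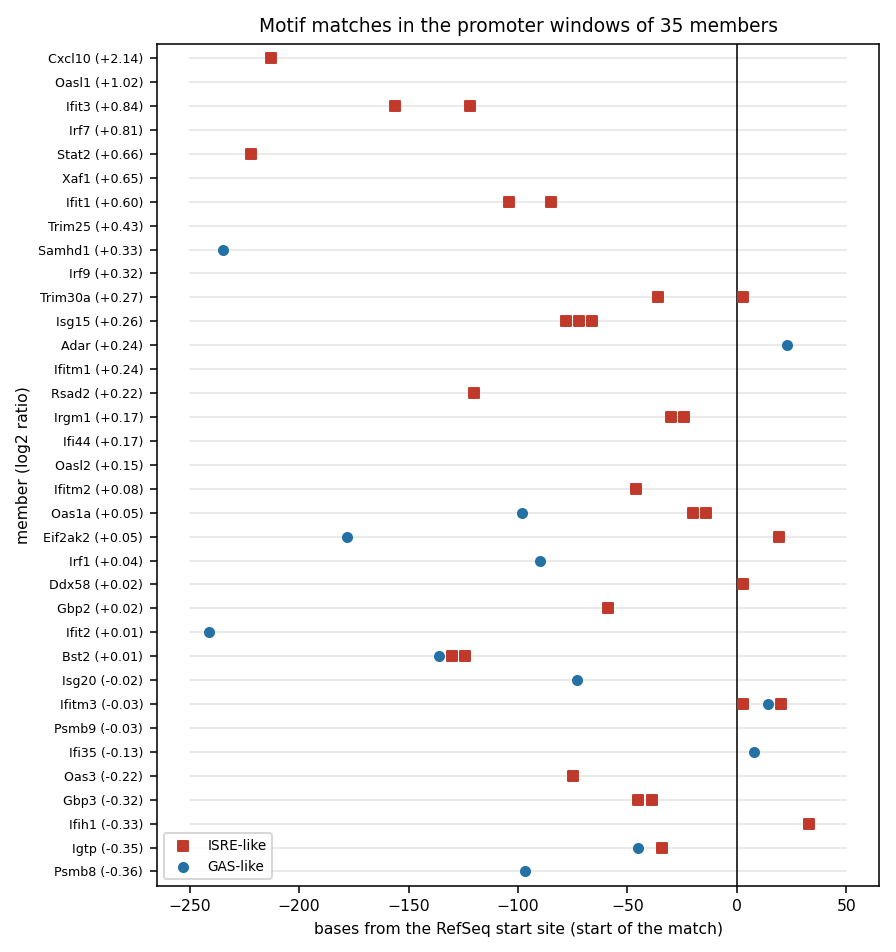
Start of each ISRE-like (red squares) and GAS-like (blue circles) match relative to the RefSeq start site at 0, in bases, for 35 members ordered by their log2 ratio, which follows each name. ISRE-like matches are spread over the whole range of ratios, from *Cxcl10* (2.14) to *Igtp* (-0.35).

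Among the members, those with a match did not have the higher median. The 19 members with an ISRE-like match had a median log2 ratio of 0.05, and 4 of them were at least 1.5-fold higher in the library labelled Ezh2 KO. The 16 without it had a median of 0.20, and 3 of them were at least 1.5-fold higher. Over all tested genes with a promoter window the medians lay close together, with a median of 0.02 and 45 of 373 at least 1.5-fold higher among genes with a match, and a median of -0.01 and 931 of 9250 among those without. For the GAS-like motif the medians were 0.01 in 12 members with a match and 0.24 in 23 without, and all 7 members of the matched set that were at least 1.5-fold higher lacked it. Over all tested genes with a window, the median was -0.03 and 61 of 804 were at least 1.5-fold higher with a GAS-like match, against -0.01 and 915 of 8819 without. These counts are a description of short windows, and a match is not a bound site.

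As a set, the ISGs were expressed in both libraries, and most were slightly higher in the library labelled Ezh2 KO. Of the 44, 42 passed the minimum mean of 1 CPM, and the others were *Mx1* and *Mx2*. Of the 42, 32 had a log2 ratio above 0, beside 49.6% of all genes tested, and their median was 0.17 beside a median of -0.003 for all genes. With *Mx1* and *Mx2*, both lower, added back, 32 of 44 were above 0 and the median was 0.16. Members at least 1.5-fold higher numbered 9, and 10.5% of all genes tested were so. Members at least 1.5-fold lower numbered 0, beside 10.0% of all genes. Summed over the 44, raw counts were 34767 for WT (0.603% of gene counts) and 27223 for the other library (0.655%), which gave a log2 ratio of 0.09 (0.07 to 0.11).

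Calls were few. Those called higher were *Cxcl10* and *Oasl1*, 2 of 42, while 2.80% of all genes were called higher, and 0 members were called lower, beside 2.30%. Without the fold threshold 12 members passed the exact test as higher and 3 as lower, where 9.68% of all genes passed as higher and 11.3% as lower. Passing at any size depends on how many counts a gene has, and such shares were not compared at like abundance. The share of genes past a fold threshold depends on how many counts a gene has, so the members were also set beside genes of like abundance. Between 100 and 10000 normalised counts, 28 of 38 members (73.7%) were above 0, beside 47.9% of 8069 genes. Of the 38, 6 were at least 1.5-fold higher, beside 3.15% of the genes. At least 1.5-fold lower were 0 of the 38, beside 4.09% of the genes, a smaller share than the 10.0% of all genes tested. The middle 95% of those genes ran from -0.68 to 0.63.

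**Figure D2:**
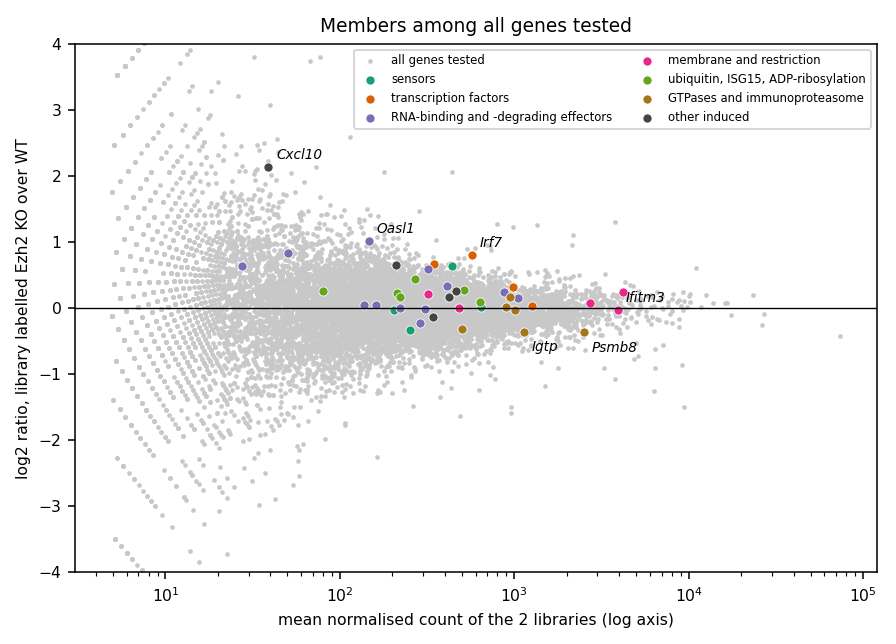
Log2 ratio (vertical axis) against the mean normalised count (horizontal log axis) of all 12588 genes tested in grey and of the 42 members tested, coloured by role; 50 genes beyond a log2 ratio of 4 in either direction are not drawn. Most members above 100 normalised counts sit between -0.4 and 0.8, and *Cxcl10* lies at 2.14 with few counts.

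An allowance for spread between libraries removed the calls. With an assumed spread between libraries, set as a coefficient of variation (CV) equal to 0.2 in an edgeR exact test, the adjusted p of *Cxcl10* was 0.020, that of *Oasl1* 0.51 and that of *Irf7* 0.80, and 0 members were called. The same assumption left 41 of 12588 genes called higher and 22 called lower. The CV was assumed, since these data hold no replicate from which to measure it.

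Levels per length differed widely among the members. RPKM (reads scaled to depth and to exon length in kilobases, here over the exons of protein-coding transcripts in GENCODE M21) was highest for the *Ifitm* genes, which code for small membrane proteins that stop viruses from fusing with cells and are a known trait of stem cells. *Ifitm3* had 1181 RPKM in both libraries, *Ifitm2* had 821 and 887, and *Ifitm1* had 712 and 859. These 3 genes ranked above 99.6% of all genes tested. Next were the immunoproteasome subunit *Psmb8* (351 and 278 RPKM), its partner *Psmb9* (153 in both) and *Bst2*, or tetherin, which holds budding virus at the cell surface (122 and 125). The 10 highest closed with *Igtp* (128 and 102), *Irgm1* (78.1 and 89.96), *Irf1* (75.6 and 79.2) and *Gbp2* (71.6 and 73.9). At the other end, *Oas2* had 1.09 and 1.76 RPKM and *Cxcl10* 1.83 and 8.70. *Mx2* and *Mx1* were below 0.5 RPKM in both libraries.

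**Figure D3:**
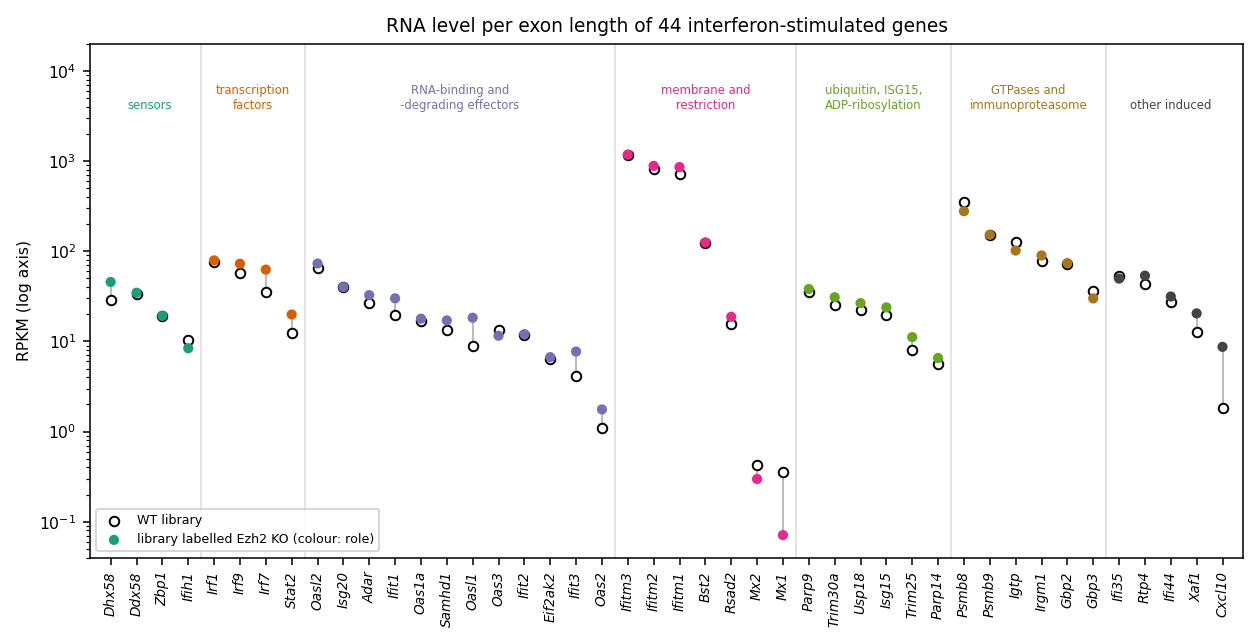
RPKM (log axis) of the 44 members in WT (open circles) and in the library labelled Ezh2 KO (filled circles, coloured by role), sorted by level within each role. Within a gene the circles mostly touch, while levels between genes span from under 0.1 (*Mx1*) to 1181 (*Ifitm3*).

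Among the sensors, which detect foreign RNA or DNA in the cytosol, *Dhx58* stood apart from the other 3. *Dhx58*, or LGP2, modulates signalling by its relatives and had 341.5 and 533.7 normalised counts (log2 ratio 0.64, 0.45 to 0.84, adjusted p = 3.22e-09 by the exact test). *Ddx58*, or RIG-I, which binds RNA ends with a triphosphate, had 643.6 and 651.4 (0.02, -0.14 to 0.18). *Ifih1*, or MDA5, which binds long double-stranded RNA, had 279.8 and 222.6 (-0.33, -0.60 to -0.07), and its adjusted p of 0.042 by the exact test did not pass. *Zbp1*, a sensor of Z-form nucleic acid, had 206.0 and 201.6 (-0.03). The interval of *Dhx58* did not overlap those of the other 3. The median of the 4 was -0.01, and it was 0.02 under total-count and upper-quartile scaling, while their summed counts had a ratio of 0.13.

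All 4 transcription factors were above 0, and 3 passed the exact test at any size. *Irf7*, which drives interferon-α genes in cells that have already met interferon, had 413.6 and 726.0 normalised counts (log2 ratio 0.81, 0.64 to 0.99, adjusted p = 1.48e-18 by the exact test). *Stat2*, a subunit of the complex that binds the ISRE, had 267.7 and 424.2 (0.66, 0.44 to 0.89). *Irf9*, the DNA-binding subunit of that complex, had 875.3 and 1094 (0.32, 0.19 to 0.45). Some exonic bases of *Irf9* are shared with *Rnf31* on the same strand, so its count is uncertain to that extent. *Irf1*, a target of interferon-γ, had 1248 and 1281 (0.04, -0.08 to 0.15), an interval that lies below those of the other 3. The median over the 4 was 0.49, the highest of the 7 roles under all 4 scalings.

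**Figure D4:**
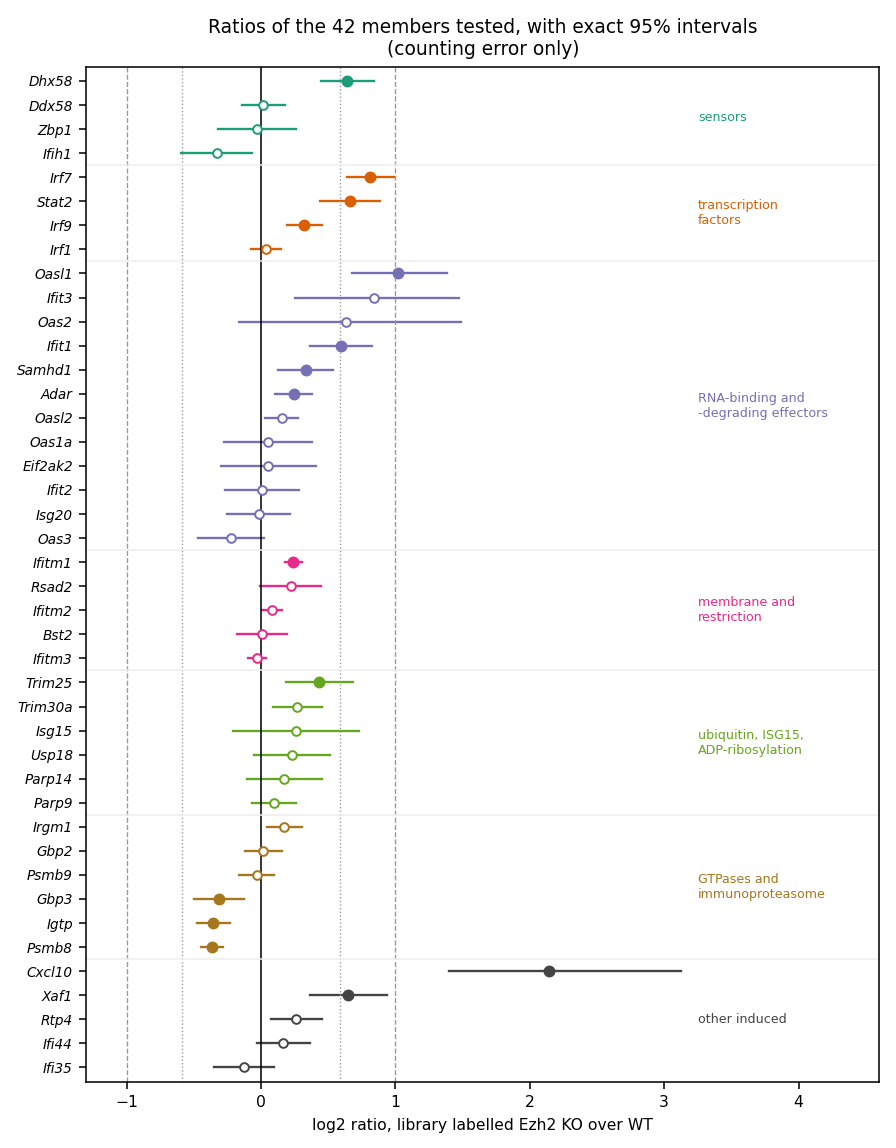
Log2 ratio (horizontal axis) of the 42 members tested, grouped by role, with exact 95% intervals as lines; filled circles passed an adjusted p of 0.01 at any size, dotted lines mark 1.5-fold and dashed lines 2-fold. *Cxcl10* and *Oasl1* lie beyond the 2-fold line on the right, and the 3 filled circles on the left are *Gbp3*, *Igtp* and *Psmb8*.

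The RNA-binding and RNA-degrading effectors were the largest role, with 12 members, of which 10 were above 0 and 4 passed the exact test as higher. *Oasl1*, a catalytically inactive relative of the 2′-5′-oligoadenylate synthetases that is known to restrain translation of *Irf7*, was called. It had 112 and 168 raw counts, or 96.1 and 195.8 normalised counts (log2 ratio 1.02, 0.67 to 1.38, adjusted p = 1.25e-07 by the exact test), and it lies at chr5:114923240-114937915. Its fold was 2.03, close to the threshold, and it fell below 2-fold with a pseudocount of 5 and when the WT library was thinned to the depth of the other. Its neighbour *Oasl2* had 995.4 and 1107 (0.15, 0.03 to 0.28), and the intervals of the pair did not overlap.

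The IFIT proteins bind viral RNA that lacks methylation of its cap. *Ifit1* had 255.7 and 386.9 normalised counts (log2 ratio 0.60, 0.37 to 0.83, adjusted p = 4.24e-06 by the exact test). *Ifit3* had 42 and 56 raw counts, or 36.0 and 65.3 normalised counts (0.84, 0.25 to 1.47), with an adjusted p of 0.017 by the exact test, which did not pass. *Ifit2*, in the same stretch of 99.3 kb on chromosome 19, had 221.4 and 222.6 (0.01, -0.27 to 0.28). The ratio of *Ifit1* thus lay above that of *Ifit2* with intervals that did not overlap. However, *Ifit1* and *Ifit3* have similar paralogs, and reads that align to several genes may be missing from their counts.

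The OAS enzymes make the second messenger that activates RNase L. *Oas1a* had 157.0 and 163.1 normalised counts (log2 ratio 0.05) and *Oas3* had 308.9 and 264.5 (-0.22, -0.47 to 0.02). *Oas2* had 25 and 29 raw counts, or 21.5 and 33.8 normalised counts (0.63, -0.17 to 1.49), so that at this depth a difference in *Oas2* was not detectable although its ratio exceeded 1.5-fold. The 3 genes lie within 177.2 kb on chromosome 5 and spanned ratios from -0.22 to 0.63 with overlapping intervals.

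The other members of this role differed less. *Adar*, which edits adenosine in double-stranded RNA, had 801.5 and 948.6 normalised counts (log2 ratio 0.24, 0.11 to 0.38, adjusted p = 0.0030 by the exact test). Exons of *Adar* overlap those of *Chrnb2*. *Samhd1*, which depletes the nucleotides that retroviruses need, had 362.1 and 455.6 (0.33, 0.13 to 0.53, adjusted p = 0.0058 by the exact test). *Eif2ak2*, or PKR, the kinase that halts translation on double-stranded RNA, had 134.7 and 139.8 (0.05, -0.30 to 0.41). *Isg20*, an RNA exonuclease, had 308.9 and 305.3 (-0.02, -0.25 to 0.22), and this sign turned positive under 3 of 7 alternatives in scaling, pseudocount and depth.

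Among membrane and virus-restriction effectors, the abundant genes differed by little. *Ifitm1* had 3853 and 4552 normalised counts (log2 ratio 0.24, 0.18 to 0.30, adjusted p = 2.10e-12 by the exact test), a 1.18-fold difference that passed because of its many counts. *Ifitm2* had 2659 and 2813 (0.08, 0.00 to 0.16) and did not pass. *Ifitm3* had 3960 and 3880 (-0.03, -0.09 to 0.04), a sign that turned under 1 of the 7 alternatives. *Ifitm1* lay above both of its neighbours, with intervals that did not overlap, in a stretch of 55.9 kb on chromosome 7. The *Ifitm* genes are close paralogs, so reads that align to several of them may be missing from their counts. *Bst2* had 478.8 and 481.3 (0.01, -0.18 to 0.19). *Rsad2*, or viperin, which makes a chain-terminating nucleotide, had 295.2 and 343.8 (0.22, -0.01 to 0.45) and did not pass.

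The *Mx* genes, dynamin-like GTPases that trap viral particles, were near the floor. *Mx1* had 7 and 1 raw counts, a log2 ratio of -1.69 with an interval from -7.86 to 0.59, and *Mx2* had 6 and 3, a log2 ratio of -0.45 with an interval from -3.19 to 1.67. *Mx1* is known to be defective in most laboratory strains, C57BL/6 among them, and *Mx2* is annotated as a polymorphic pseudogene. No difference could be detected at these counts.

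The genes of ubiquitin, ISG15 and ADP-ribosylation were all above 0, 6 of 6, with a median of 0.24. *Trim25*, the ubiquitin ligase that activates RIG-I, had 230.0 and 311.1 normalised counts (log2 ratio 0.43, 0.19 to 0.69, adjusted p = 0.0033 by the exact test) and was the only member of the role to pass. *Isg15*, the ubiquitin-like modifier, had 85 and 75 raw counts, or 72.9 and 87.4 normalised counts (0.26, -0.21 to 0.73). *Usp18*, which removes ISG15 from proteins and damps signalling from the interferon receptor, had 194.8 and 228.4 (0.23, -0.05 to 0.51). *Trim30a* had 468.5 and 565.2 (0.27, 0.09 to 0.45, adjusted p = 0.012 by the exact test, not passed). The ADP-ribosyltransferases *Parp9* (613.6 and 656.1) and *Parp14* (208.5 and 235.4) had ratios of 0.10 and 0.17. *Parp9* shares exonic bases with *Dtx3l* on the opposite strand, and use of strand in the counting is not given in the sources used here.

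The GTPases and immunoproteasome subunits, genes best known for induction by interferon-γ, had the lowest median of the 7 roles, -0.17. Of the 6, 4 were below 0 and 2 above, and the 3 that passed the exact test were lower. *Psmb8* had 2826 and 2194 normalised counts (log2 ratio -0.36, -0.45 to -0.28, adjusted p = 9.57e-17 by the exact test), the lowest ratio of the 42 members. *Igtp*, a GTPase that acts on vacuoles of intracellular parasites, had 1276 and 997.5 (-0.35, -0.48 to -0.23, adjusted p = 2.02e-07 by the exact test). *Gbp3*, a guanylate-binding protein, had 552.6 and 444.0 (-0.32, -0.50 to -0.13, adjusted p = 0.0041 by the exact test). Each of these was 1.24- to 1.29-fold lower, short of the fold threshold. *Psmb9*, beside *Psmb8* on chromosome 17, had 1023 and 999.8 (-0.03, -0.16 to 0.09). *Gbp2*, beside *Gbp3*, had 890.8 and 900.8 (0.02, -0.12 to 0.15), and *Irgm1*, a relative of *Igtp*, had 890.8 and 1005 (0.17, 0.04 to 0.31, adjusted p = 0.033 by the exact test, not passed). The difference between roles was not tested. The summed counts of the role gave -0.19 (-0.24 to -0.14), the lowest of the 7 roles, and its median was below 0 under each of 4 scalings. Exonic bases are shared between *Igtp* and *Irgm2*, between *Psmb9* and *Tap1*, and between *Gbp2* and *Mir6381*.

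Of the other induced genes, *Cxcl10* had the highest ratio of all members. *Cxcl10* encodes the chemokine that draws T cells and natural killer cells through CXCR3, and it lies at chr5:92346638-92348889. It had 16 and 55 raw counts, or 13.7 and 64.1 normalised counts (log2 ratio 2.14, 1.40 to 3.13, adjusted p = 1.03e-07 by the exact test). *Xaf1*, a gene linked to cell death, had 163.9 and 257.5 (0.65, 0.37 to 0.94, adjusted p = 6.62e-05 by the exact test). *Rtp4* had 423.1 and 506.9 (0.26), *Ifi44* had 395.6 and 444.0 (0.17) and *Ifi35* had 358.7 and 328.6 (-0.13), and none of these 3 passed.

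Some neighbouring members had different ratios. The members lie on 14 chromosomes, and 19 of them form 8 groups of neighbours separated by at most 150 kb. Within the *Ifit*, *Oasl*, *Ifitm*, *Gbp* and *Psmb* groups at least 1 pair of neighbours had intervals that did not overlap. In the *Parp*, *Oas* and *Mx* groups all intervals overlapped. How often other neighbouring genes differ in this way was not measured.

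**Figure D5:**
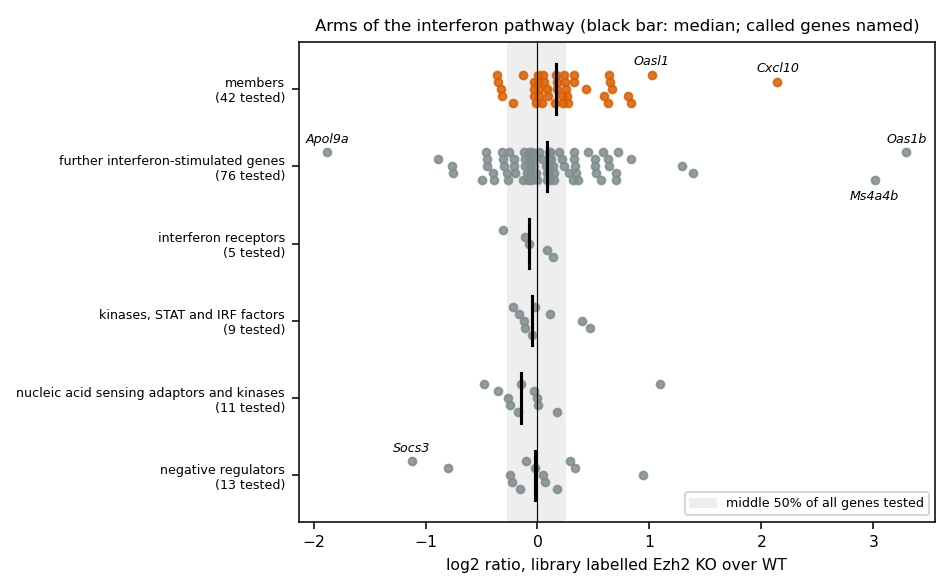
Log2 ratio (horizontal axis) of each gene tested in 6 arms of the pathway, with the median as a black bar, called genes named and the middle 50% of all genes tested shaded. Medians of the members and of further ISGs lie to the right of 0 (0.17 and 0.08), and those of the other 4 arms lie between -0.15 and -0.02.

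Genes that act before the ISGs in the pathway were then examined. The 21 interferon genes listed were all at 2 counts or fewer in both libraries: *Ifnab* had 1 and 0 counts, *Ifnz* had 0 and 2, and *Ifnb1*, *Ifna1*, *Ifna2*, *Ifna4*, *Ifna5*, *Ifna6*, *Ifna7*, *Ifna9*, *Ifna11*, *Ifna12*, *Ifna13*, *Ifna14*, *Ifna15*, *Ifna16*, *Ifne*, *Ifnk*, *Ifng*, *Ifnl2* and *Ifnl3* had 0 in both. A count of 0 allows up to 0.521 CPM for WT and 0.722 CPM for the other library. RNA of the ligands was thus not detectable in either library at this depth.

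Receptor subunits were present and did not pass the test. *Ifnar1* had 406.8 and 447.5 normalised counts (log2 ratio 0.14, -0.06 to 0.33), and *Ifnar2* had 617.0 and 585.0 (-0.08, -0.24 to 0.09). *Ifngr1* had 1032 and 1094 (0.08, -0.04 to 0.21), and *Ifngr2* had 291.8 and 235.4 (-0.31, -0.57 to -0.05, adjusted p = 0.052 by the exact test). *Il10rb*, shared with the interleukin-10 receptor, had 378.4 and 350.8 (-0.11), while *Ifnlr1*, the specific subunit of the interferon-λ receptor, had 0 counts in both.

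Of the 9 kinases, STAT and IRF factors outside the members, only *Irf5*, a factor downstream of Toll-like receptors, passed the exact test, and it did so at any size and not at 2-fold. *Irf5* had 246.3 and 341.4 normalised counts (log2 ratio 0.47, 0.23 to 0.71, adjusted p = 7.21e-04 by the exact test). *Jak1* had 3045 and 2941 (-0.05), *Jak2* had 531.2 and 573.3 (0.11) and *Tyk2* had 364.7 and 325.1 (-0.17). *Stat3* had 2284 and 2106 (-0.12), *Irf2* had 617.0 and 608.3 (-0.02), *Irf3* had 350.1 and 300.6 (-0.22) and *Irf8* had 61.8 and 81.6 (0.40, -0.09 to 0.90). The median over the 9 was -0.05, their mean was 0.03, and their summed counts gave -0.06.

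Among 11 sensing adaptors and kinases tested, 0 were called and the median was -0.15. Among 13 negative regulators the median was -0.02, the summed counts gave 0.04, and 1 gene was called. *Socs3*, which blocks JAK kinases after cytokine signals, was lower, with 310.6 and 142.2 normalised counts (log2 ratio -1.12, -1.44 to -0.83, adjusted p = 2.83e-13 by the exact test). *Socs1*, the main SOCS inhibitor of interferon-γ signalling and chosen after its value was seen, had 191.4 and 109.5 (-0.80, -1.17 to -0.45, adjusted p = 4.80e-05 by the exact test), short of 2-fold. *Irf2bp2*, a corepressor of IRF2 likewise chosen after its value was seen, was higher by nearly as much, with 498.6 and 959.0 (0.94, 0.79 to 1.10, adjusted p = 1.08e-31 by the exact test).

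A longer list of further ISGs, written beside the members, lay nearer to all genes tested than the members did. Summed over the 81 genes found, counts gave a log2 ratio of 0.02 (0.003 to 0.037). Of the 81, 76 were tested and 41 were above 0, beside 49.6% of all genes tested. The median of the list was 0.08, beside -0.003 for all genes. It was 0.02 with a minimum mean of 10 CPM and 0.03 with the WT library thinned to the depth of the other. Called higher were *Oas1b* (2 and 22 raw counts; log2 ratio 3.29, interval 1.88 to 7.03) and *Ms4a4b* (1 and 12 raw counts; 3.01, 1.27 to 9.44), and called lower was *Apol9a* (38 and 7 raw counts; -1.88, -3.41 to -0.82). Each of these 3 has near-identical relatives and few counts, so their ratios are uncertain. These counts, 2 and 1 of 76, stand beside 2.80% and 2.30% of all genes. At any size 15 passed as higher and 10 as lower, beside 9.68% and 11.3% of all genes. Antigen-processing genes of this list, chosen after their values were seen, had ratios below 0 beside *Psmb8*: *Tap1*, a peptide transporter subunit, had 2118 and 1763 normalised counts (-0.26, -0.36 to -0.17) and the immunoproteasome subunit *Psmb10* had 1216 and 1007 (-0.27, -0.40 to -0.15). Others of the kind were divided and did not pass the exact test. *Psme1* had a ratio of -0.11 (-0.20 to -0.03) and *Psme2* a ratio of -0.20 (-0.35 to -0.05). *Tap2* had a ratio of -0.01 and *Tapbp* a ratio of 0.10. Some GTPases of the list related to *Gbp3* and *Igtp*, also chosen after their values were seen, passed the exact test as higher: *Gbp5* had 132.2 and 215.6 normalised counts (0.70, 0.39 to 1.02), *Gbp6* had 117.6 and 192.3 (0.70, 0.37 to 1.05), and *Irgm2* had 698.5 and 822.7 (0.24, 0.09 to 0.38). Other such GTPases did not pass. Of these, *Gbp8* (-0.25), *Iigp1* (-0.09), *Tgtp2* (-0.06), *Ifi47* (-0.06), *Gbp4* (-0.05) and *Gbp7* (-0.03) were below 0. *Tgtp1* (0.04) and *Gbp9* (0.22) were above 0.

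Markers of other blood cells moved with the libraries. All 15 HSC markers were counted in both libraries and their median was -0.08, but they did not move together. *Procr* (1128 and 1199 normalised counts) and *Kit* (5202 and 5120) had ratios of 0.09 and -0.02. *Mycn* was called lower (5097 and 2423, log2 ratio -1.07), and *Ctnnal1* (-0.70), *Slamf1* (-0.62) and *Fgd5* (-0.59) passed the exact test as lower, so that 4 of the 15 were at least 1.5-fold lower and 0 were at least 1.5-fold higher. At any size 2 of the 15 passed as higher, 1 of them *Ly6a* (0.32).

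Summed counts of 10 neutrophil markers were 8112 and 13528 (log2 ratio 1.18), and *Ngp*, *Ltf*, *Camp*, *Lcn2*, *S100a8* and *Retnlg* were called higher. Those of 8 eosinophil markers were 10 and 3242, with 6 of the 8 at 0 in WT, and these 6 (*Prg2*, *Epx*, *Prg3*, *Ear1*, *Ear6* and *Ear2*) were called higher with 2030 down to 10 counts. Those of 10 B lymphoid markers were 279 and 421 (1.03), with 6 of the 10 at 0 in WT, and *Cd79a*, *Vpreb1*, *Vpreb3*, *Dntt* and *Igll1* were called higher. Erythroid markers gave 0.33 over 10 genes, a sum made up mostly of *Car2* (9875 and 8590 raw counts). The median of the 9 tested was 1.03, and 8 of them were above 0. Among those called higher were *Car1* (197 and 607 raw counts), *Klf1* (51 and 93) and *Ermap* (28 and 45). Monocyte and macrophage markers gave 0.24 over 12, a sum made up mostly of *Lyz2* (2848 and 2512 raw counts). Of the 9 tested, 6 were above 0 and 3 below. *Adgre1* (0 and 9) and *C1qb* (33 and 59) were called higher, while *Csf1r* (24 and 5, log2 ratio -1.66) was lower and not called. Endothelial markers gave 0.39 over 6 with 0 called. The sum of T and natural killer cell markers gave -0.01 over 10, in which opposite differences cancel: *Klrb1c* (116 and 14 raw counts) was called lower, *Il2rb* (0 and 34) and *Cd3g* (0 and 9) were called higher, and the median of the 4 tested was 1.94.

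Of 10 markers of the plasmacytoid dendritic cell, a main source of interferon-α, 5 were at 3 counts or fewer in both libraries. *Siglech* had 1 and 0 counts, *Ccr9* had 0 and 1, and *Klk1*, *Cox6a2* and *Cd300c* had 0 in both. *Ly6d* had 1 and 4 raw counts and *Pacsin1* had 8 and 7. The less specific *Bst2*, *Tcf4* and *Runx2* were counted in both libraries. The 4 markers tested were all above 0, with a median log2 ratio of 0.13 and 0 called. Summed counts of the 10 were 1886 and 1486 (log2 ratio 0.10, -0.002 to 0.20). With the markers of these other cells left out of scaling and tests, 32 of 42 members were above 0 and the median was 0.17. This left the counts of the members unchanged, so it cannot show how much of their RNA came from other cells. The part of RNA from other cells in the ratios of the ISGs, singly or as a set, was not tested.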

How the data were processed

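RNA was sequenced from sorted mouse HSCs in 2 libraries, 1 WT and 1 labelled Ezh2 KO, and groups follow the titles and genotypes of the labels. The authors deposited whole-number read counts by gene symbol, with no normalisation. The submitters' processing notes name TopHat2 2.0.13, Bowtie2 2.1.0, StringTie, edgeR, bedtools and the build mm10, without roles. The counting program and its use of strand are not given in the sources used here. The last 5 entries of a file, for reads outside genes, were left out of totals and tests. Reads without a feature made up 44.9% of all entries in WT and 44.1% in the other library, reads with several alignments 10.7% and 12.3%, and ambiguous reads 0.532% and 0.539%. Reads with several alignments enter no count, which lowers the counts of members with near-identical paralogs.

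The 44 members, their roles and all other gene lists were chosen with earlier results of these data known, so no list is independent evidence. Scaling used the size factors (median of ratios) of DESeq2 1.42.0, which were 1.17 for WT and 0.858 for the library labelled Ezh2 KO, run in R 4.3.3. A single library per group leaves no spread to estimate, so neither DESeq2 nor the quasi-likelihood test of edgeR was run. As the main test, genes averaging 1 CPM or more were tested on their pair of raw counts with an exact two-sided binomial test, the expected share coming from the size factors, and p-values were adjusted by Benjamini-Hochberg over all 12588 genes. Genes were called at an adjusted value below 0.01 and at least 2-fold. The procedure was tested on simulated data that held counting error and planted changes but no spread between libraries. The simulation thus cannot show how the calls behave under such spread. RPKM used exon lengths from GENCODE M21 (GRCm38, the assembly of mm10), in which 24027 of 24421 symbols had a position, and promoters came from RefSeq on GRCm38.p6. Tests ran in scipy 1.17.1 and pandas 2.3.3 under Python 3.11.15 with numpy 2.4.6, the assumed-CV test in edgeR 4.0.16, and plots in matplotlib 3.10.9.

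By rule the text gives values for members called, for the 10 members with the highest mean RPKM, for members at least 1.5-fold different and for the ligand, receptor, JAK, STAT and IRF genes listed, and, from other lists, it names called genes (not all are reported here). Further members are named to account for all 44. Other genes were chosen after their values were seen, as stated, as were the uncalled HSC markers named. All 10 dendritic cell markers listed are named. Sequence windows were taken in order of mean RPKM, and 3 more for their ratio. Alternatives in scaling, pseudocount, depth, filters, thresholds and left-out genes are given in the closing section.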

Additional observations from a re-analysis of the deposited data

How the results depend on the processing

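No paired analysis was possible because the 2 groups hold a single library each. The number of members called higher, 2 as reported, became 1 with a pseudocount of 5, 1 with the WT library thinned, and 1 with a minimum mean of 10 CPM, which leaves 40 members tested. It became 7 with a 1.5-fold threshold, 12 with no fold threshold, and 0 with an assumed CV of 0.2 or 0.4. Members called lower were 3 with no fold threshold, and 0 under the other alternatives run. Members at least 1.5-fold lower numbered 1 with no expression filter, which is *Mx1*. The log2 ratio of the summed counts, 0.089 as reported, was 0.12 under total-count scaling, 0.11 under upper-quartile scaling and 0.065 without *Ifitm1*. Members above 0 ranged from 30 of 40 (minimum mean of 10 CPM) to 34 of 42 (total-count scaling), those at least 1.5-fold higher from 7 to 9, the median from 0.16 to 0.24 (the latter with the mean in place of the median) and the median of the further ISGs from 0.02 to 0.11. Of the 42 members, 4 changed sign under at least 1 of 7 alternatives in scaling, pseudocount and depth, namely *Ifitm3*, *Isg20*, *Ddx58* and *Zbp1*, and *Oasl1* lost its call under 2 of them. Depth limits the members with few counts, *Mx1*, *Mx2*, *Oas2*, *Ifit3* and *Cxcl10*, most.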
